A study of Mus musculus with 2 samples.

Results

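The BCL2 family genes described here are 9 genes taken by symbol from the gene list shared by both libraries, which holds 31053 genes. They comprise 5 survival members (Bcl2, Mcl1, Bcl2l1, Bcl2a1b and Bcl2a1d) and 4 death members (Bax, Bak1, Bcl2l11 and Bbc3). All 9 were found, and their levels were followed through cell classes of the mouse small intestine. The cells were sorted from small-intestinal lamina propria of C57BL/6 mice as live CD45+ innate lymphoid cells (ILCs), positive for CD90.2 and CD127 and negative for lineage markers, CD3 and TCRβ. One library came from WT mice and the other from Zfp36-/- mice, in which Zfp36 (encoding tristetraprolin, TTP) is deficient in every cell and not in ILCs alone. Cells of 4 mice were pooled per genotype, and no age, treatment or further allele is given for either group. Each genotype is therefore 1 library: no difference between the genotypes could be tested, and every interval below is a 95% interval that covers counting error only.

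BCL2 family proteins decide whether the outer mitochondrial membrane is permeabilised, the step that commits a cell to intrinsic apoptosis. BAX and BAK, the products of Bax and Bak1, form the pores. BCL-2, MCL-1, BCL-XL (Bcl2l1) and A1 (the Bcl2a1 genes) hold them in check, and BH3-only proteins such as BIM (Bcl2l11) and PUMA (Bbc3) bind and neutralise these guards. Lymphocytes depend on IL-7 and related cytokines to keep BCL-2 up and BIM down, and MCL-1 is the guard on which plasma cells are known to depend. TTP binds AU-rich elements in 3′ untranslated regions (3′ UTRs) and promotes the decay of the transcripts that carry them.

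The core of the TTP binding element, written as DNA, is TATTTAT. It was searched for on the transcript strand, overlapping copies included, in the longest 3′ UTR of a coding transcript of each gene in GENCODE M21 (mm10), and 27.6% of 20987 genes held it. Among the members it was found in Bcl2 (2 copies), Mcl1 (3), Bcl2l11 (2) and Bcl2l1 (1), and no match to these letters lay in the 3′ UTRs of Bcl2a1b, Bcl2a1d, Bax, Bak1 and Bbc3. Long 3′ UTRs hold it often. Of UTRs between 0.8 and 1.2 times as long as its own, 67.4% held the motif for Bcl2, 61.1% for Bcl2l11, 44.8% for Mcl1 and 33.4% for Bcl2l1, against 3.55% for Bcl2a1b. The matches are shown because the deleted protein is known to bind such letters, with the motif in capitals and 10 bases on either side, 5′ to 3′ on the transcript strand. A match is a description and not a measured binding site.
Bcl2 copy 1 (chr1:106542996-106543022, minus strand): aaaaaagattTATTTATttaagacagt
Bcl2 copy 2 (chr1:106539917-106539943, minus strand): ggcatattctTATTTATtacatctaag
Bcl2l11 copy 1 (chr2:128161110-128161136, plus strand): atattttgacTATTTATtagattagaa
Bcl2l11 copy 2 (chr2:128161344-128161370, plus strand): agatgttgtaTATTTATtttccgctta
Bcl2l1 (chr2:152780893-152780919, minus strand): agcgtgtctgTATTTATgtgtgaggag
Mcl1 copy 1 (chr3:95660883-95660909, plus strand): aaaacatgtgTATTTATgaaggtggac
Mcl1 copy 2 (chr3:95662579-95662605, plus strand): tgtacctgtgTATTTATccttgatcat
Mcl1 copy 3 (chr3:95662604-95662630, plus strand): atagtttgctTATTTATgtttaactct

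Cells were placed in classes by how many distinct marker genes of a class had at least 1 unique molecular identifier (UMI), with 3 or more markers required. After filters, 3360 WT cells (median 5293 UMIs) and 3334 knockout cells (median 5337) remained, and 92.7% and 88.8% of them fell in a class. The classes held 624 WT and 1113 knockout ILC2, 884 and 1082 ILC3, 195 and 216 ILC1/NK cells, 1195 and 54 T cells, 117 and 163 plasma cells and 83 and 323 myeloid cells. ILC3 divided into LTi-like (383 and 382 cells), NCR+ (406 and 471) and cells with neither subset's markers (95 and 229). T, plasma and myeloid cells were present although the sort was set to leave them out. Zfp36 transcripts were lower in the knockout in every class, for example 1186 against 306 CPM (UMIs scaled to a total of 1000000) in ILC3, but were not absent, and the sources used here do not say which part of the gene is deleted. The 2 libraries shared 2 cell barcodes, 1 of them among kept cells.

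Some classes did not hold the same cells in both libraries. Of the 54 T cells in the knockout, 41 had a UMI of Trdc, the γδ T cell receptor constant gene, against 114 of 1195 in WT, and 42.6% of them sat at the minimum of 3 markers against 4.02%. Those T cells also carried more of other classes' markers than in WT, with 1556 against 377 CPM of summed myeloid markers, 1364 against 475 CPM of ILC3 markers and 1027 against 398 CPM of ILC2 markers. Unsupervised clusters gave the same name to 48.1% of knockout and 90.3% of WT T cells and to 55.1% and 74.4% of ILC1/NK cells, against 95.1% to 99.1% for ILC2, ILC3, plasma and myeloid cells. Among myeloid cells, Plet1, a marker of a dendritic cell subset, stood at 202 CPM in WT and 887 CPM in the knockout, while the macrophage gene C1qa stood at 1100 and 584 CPM. UMIs of Y-linked genes occurred in 10.6% to 25.7% of knockout cells of a class and in 0% to 1.03% of WT cells, and the labels give no sex. Summed immediate-early genes were lower in the knockout in ILC2 (10832 against 8929 CPM) and ILC3 (16528 against 12936 CPM) and near level in plasma cells (3254 against 3232 CPM). Summed heat-shock genes stood at 576 against 173 CPM in plasma cells and 1214 against 372 CPM in myeloid cells. Their part in the ratios below was not tested, and values without some of the cells in question are given in places. A cell without a Y-linked UMI may still come from a male. Leaving out cells with such a UMI therefore does not remove male cells.

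Counted gene by gene, Bcl2 was the most abundant member in every ILC class of both libraries, and Mcl1 took that place in plasma and myeloid cells. The A1 genes summed (Bcl2a1a, Bcl2a1b, Bcl2a1c and Bcl2a1d) stood above Bcl2 in WT ILC1/NK cells (865 against 676 CPM) and WT NCR+ ILC3 (356 against 266 CPM). They stood above Mcl1 in WT myeloid cells (716 against 631 CPM). In the knockout the sum was below that leader in these classes (483 against 729, 246 against 415 and 604 against 644 CPM). Reads shared between A1 genes may be missing from the sum, which may therefore be an undercount beside Bcl2 and Mcl1. The libraries were made from 3′ tags, which count molecules and not bases, so UMIs of different genes were set side by side without division by length. In ILC2, Bcl2 held 46.2% (44.7 to 47.8) of all member UMIs in WT and 50.1% (48.9 to 51.2) in the knockout. Its share was 55.2% (53.1 to 57.3) and 49.1% (47.0 to 51.3) in LTi-like ILC3, and in NCR+ ILC3 it was 22.8% (21.1 to 24.5) and 31.7% (30.04 to 33.4). In plasma cells, Mcl1 held 59.7% (57.4 to 62.0) in WT and 61.6% (59.4 to 63.8) in the knockout, and in myeloid cells 40.4% (38.1 to 42.6) and 42.8% (41.8 to 43.8). Gene by gene, T cells were the only class in which the leading member differed between libraries. With the A1 genes summed, the leader also differed in ILC1/NK cells, NCR+ ILC3 and myeloid cells. The myeloid A1 levels depend on single cells. Without the richest cell of each library, the log2 ratio of knockout over WT there went from -0.26 to 0.08 for Bcl2a1b and from -0.43 to -0.14 for Bcl2a1d. The leader without those cells was not computed. Bcl2a1b led in WT T cells with 28.7% (27.9 to 29.5), and Bcl2 led in the knockout T cells with 33.8% (29.97 to 37.8). The 2 sets of T cells differ in kind, and among T cells with a Trdc UMI Bcl2 led in both libraries. There Bcl2 and Bcl2a1b stood at 473 and 442 CPM in WT, with overlapping intervals, and at 537 and 156 CPM in the knockout. T cells with Trac and no Trdc numbered only 7 in the knockout.

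Bax led the death members in 16 of the 18 class and library combinations. The exceptions were ILC1/NK cells and T cells of the knockout, in which Bcl2l11 led. In those ILC1/NK cells Bcl2l11 held 12.2% of member UMIs and Bax 6.70%, and in those T cells 15.8% and 9.51%. Survival members together held 70.8% (66.9 to 74.4) to 82.5% of member UMIs. The survival share in ILC2 was 73.5% (72.1 to 74.9) in WT and 74.7% (73.7 to 75.7) in the knockout, and in ILC3 it was 76.5% (75.3 to 77.6) and 76.7% (75.7 to 77.8), so the intervals overlapped in both classes. It was lower in the knockout, with intervals that did not overlap, in ILC1/NK cells (82.5% and 77.7%), T cells (82.5% and 70.8%), plasma cells (81.8% and 77.2%) and, by the narrowest gap, myeloid cells (80.2%, 78.3 to 82.0, and 77.4%, 76.5 to 78.3).

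**Figure D1:**
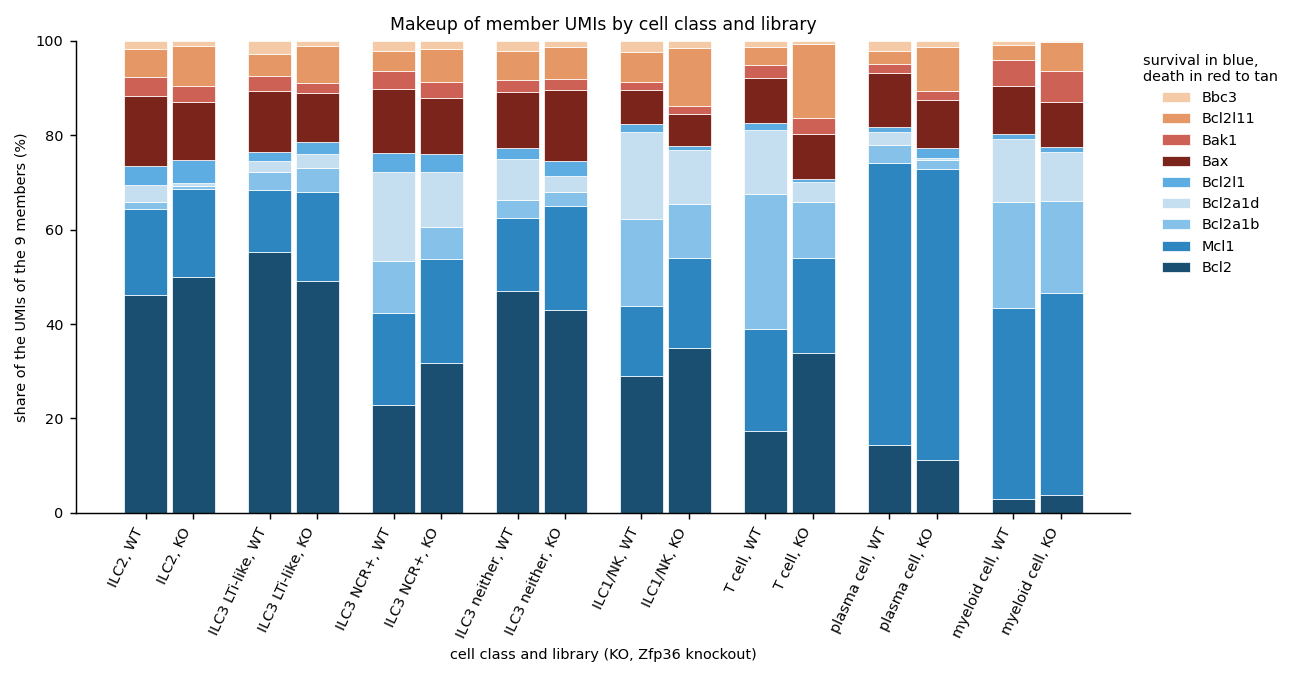
Share of the UMIs of the 9 members (%, vertical axis) held by each member in each cell class and library, with survival members in blues and death members in red to tan. The dark blue Bcl2 block is the largest in all ILC bars, from 22.8% in WT NCR+ ILC3 to 55.2% in WT LTi-like ILC3, and the Mcl1 block is the largest in plasma and myeloid bars.

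Bcl2 (ENSMUSG00000057329; mm10 chromosome 1, 106538178 to 106714274, minus strand) encodes the founding guard of the family. Its WT level ranked LTi-like ILC3 first at 736 CPM (695 to 778), then ILC1/NK cells at 676 CPM and ILC3 with neither subset's markers at 628 CPM, and neighbours in this order overlapped in their intervals. ILC2 followed at 432 CPM, T cells at 304 CPM and NCR+ ILC3 at 266 CPM, each apart from the next. Plasma cells at 56.4 CPM and myeloid cells at 46.6 CPM were lowest and overlapped. The highest class was thus 15.8-fold above the lowest in WT and 17.0-fold in the knockout. When each cell was thinned to 2000 UMIs, 69.8% (64.9 to 74.4) of WT LTi-like cells had a Bcl2 UMI, against 9.40% of WT plasma cells (75.2% before thinning, at a median of 39518 UMIs) and 11.4% of WT myeloid cells, the classes with the lowest Bcl2 level. No class here is known to lack Bcl2, so the share that free RNA gives was not measured.

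Mcl1 (ENSMUSG00000038612; chromosome 3, 95658788 to 95663176, plus strand) encodes a short-lived guard. Its order was another one. WT myeloid cells had 631 CPM (587 to 678), T cells 380 CPM and ILC1/NK cells 343 CPM, and the remaining classes lay between 170 CPM in ILC2 and 236 CPM in plasma cells. Its range was the narrowest of the 9 members, with 3.71-fold between the highest and lowest class in WT. After thinning, 69.6% of WT myeloid cells and 27.9% of WT ILC2 had an Mcl1 UMI.

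Bcl2a1b (ENSMUSG00000089929; chromosome 9, 89199209 to 89207827, plus strand) and Bcl2a1d (ENSMUSG00000099974; chromosome 9, 88723285 to 88731914, minus strand) encode copies of A1, a guard induced through NF-κB. Their transcripts in GENCODE M21 were 99.1% identical over 817 aligned bases, with 7 mismatches, and 34.1% of the 90-base stretches in the last 400 bases of Bcl2a1b also occurred in Bcl2a1d. Whether reads that match both were assigned or left out is not given in the sources used here. The split between the genes is therefore uncertain, and their sum may be an undercount. Bcl2a1b was highest in WT T cells at 505 CPM (488 to 522), followed by ILC1/NK cells at 430 CPM and myeloid cells at 352 CPM, with NCR+ ILC3 at 130 CPM and the other ILC3 at 52.6 and 52.98 CPM. ILC2 lay at 12.3 CPM, and 41.0-fold separated the highest from the lowest class. Bcl2a1d had its WT peak in ILC1/NK cells, also at 430 CPM, and stood at 236 CPM in T cells, 221 CPM in NCR+ ILC3, 30.2 CPM in LTi-like ILC3 and 35.3 CPM in ILC2. Both A1 genes thus set NCR+ apart from LTi-like ILC3, in the direction opposite to Bcl2.

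Bcl2l1 (ENSMUSG00000007659; chromosome 2, 152780668 to 152831728, minus strand), which encodes BCL-XL, was the least abundant survival member in most classes, and was highest in WT NCR+ ILC3 at 46.2 CPM. WT ILC1/NK cells had 43.5 CPM and ILC2 37.1 CPM, and neighbouring classes overlapped from the highest down to myeloid cells at 16.7 CPM. WT plasma cells lay below all others at 4.68 CPM.

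Among the pore formers, Bax (ENSMUSG00000003873; chromosome 7, 45461697 to 45466898, minus strand) was nearly level across cells. It lay between 139 and 172 CPM in all WT classes but plasma cells, which had 45.0 CPM. Bak1 (ENSMUSG00000057789; chromosome 17, 27019810 to 27029009, minus strand) was highest in myeloid cells at 87.5 CPM in WT and 99.8 CPM in the knockout. The other classes lay between 29.8 and 46.8 CPM, except plasma cells at 7.13 and 8.16 CPM. Exons of Bax overlap the annotated gene Gm45808 on the same strand, and those of Bcl2a1b overlap Gm29094, so reads there can be ambiguous. Bak1 overlaps Ggnbp1, and Bcl2 overlaps D630008O14Rik, on the opposite strand only.

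Of the BH3-only members, Bcl2l11 (ENSMUSG00000027381; chromosome 2, 128126038 to 128162547, plus strand) was highest in WT ILC1/NK cells at 148 CPM (126 to 173), apart from all other classes. ILC3 with neither subset's markers had 80.7 CPM, T cells 68.6 CPM, LTi-like ILC3 64.0 CPM, ILC2 56.8 CPM, myeloid cells 49.98 CPM and NCR+ ILC3 48.1 CPM, with each overlapping the next. Plasma cells had 11.4 CPM. Bbc3 (ENSMUSG00000002083; chromosome 7, 16308393 to 16318205, plus strand) was likewise highest in WT ILC1/NK cells, at 57.6 CPM, and lowest in plasma cells, at 8.47 CPM.

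**Figure D2:**
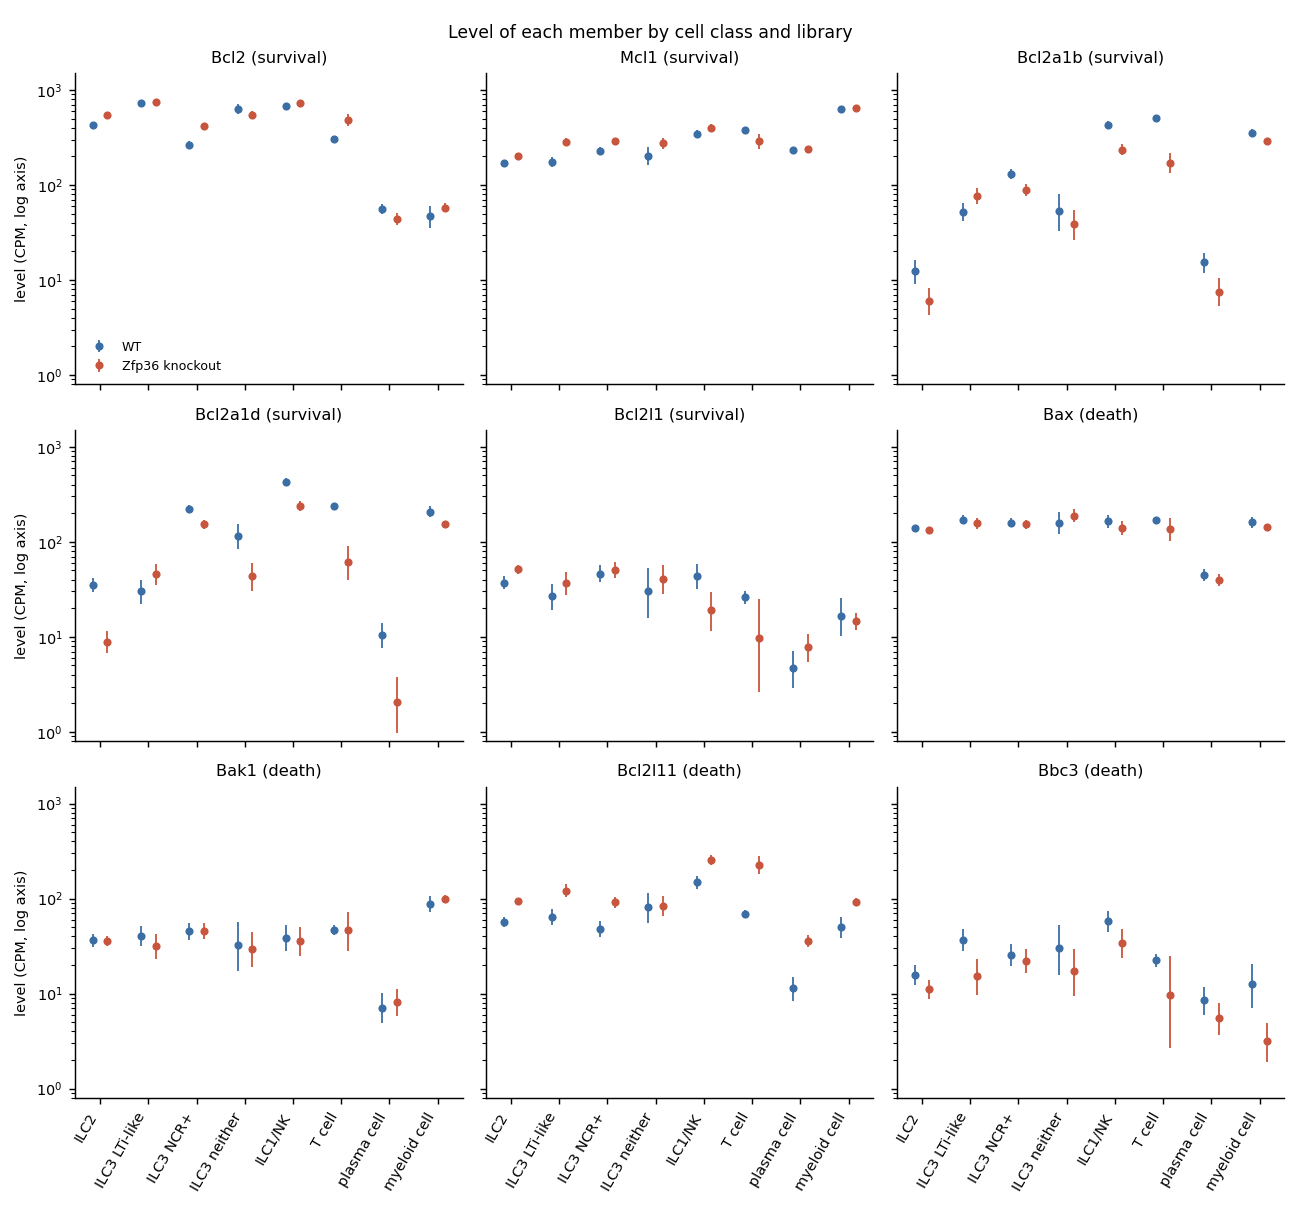
Level of each member in CPM (logarithmic vertical axis) in 8 cell classes that share no cell, with WT in blue and the Zfp36 knockout in red. Points are 1 pooled library each and bars are exact 95% Poisson intervals; Bcl2l11 in the knockout lies above WT in 7 of the 8 classes without overlap, while Bax overlaps in all.

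The comparison between libraries asked whether loss of TTP goes with another balance of these genes. A ratio was computed for members with 50 or more UMIs over both libraries, which 77 of 81 member and class pairs reached. A member was counted as higher or lower at 1.5-fold or more (0.585 on the log2 scale), and is named as such only where its interval also excluded 0. By the fold alone 13 pairs were higher and 16 lower in the knockout, and 26 of them, 12 higher and 14 lower, also had an interval that excluded 0. The other 3 were Bcl2l1 in plasma cells (4.68 against 7.76 CPM, 0.73, -0.08 to 1.57) and Bbc3 in T cells (-1.20, -3.09 to 0.19) and plasma cells (-0.62, -1.39 to 0.13). The median of all measured genes was itself 0.10 to 0.24 above 0 on the log2 scale, depending on the class, so ratios relative to it are lower by that amount. ILC3 and its subsets share cells and are not separate evidence.

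Counted by the fold alone, as the background is, 1 of 9 measured members in ILC2 was higher in the knockout and 2 were lower, beside 15.4% and 3.44% of the 9146 genes measured in that class. ILC3 as a whole had 1 higher and 1 lower, against 14.8% and 4.09% of genes. Among LTi-like cells 3 were higher and 1 lower (17.3% and 5.35% of genes), and among NCR+ cells 2 were higher and none lower (15.5% and 4.01%). Of 6 members measured in ILC3 with neither subset's markers, none was higher and 1 was lower (21.2% and 5.53%). ILC1/NK cells had 1 higher and 4 lower (14.3% and 5.46%), and T cells 2 higher and 4 lower (23.1% and 13.7%). Plasma cells had 2 higher and 3 lower (25.2% and 4.35%), and 1 of 8 was higher and none lower in myeloid cells (16.5% and 8.24%). The shares higher were near the background in most classes, and the member that recurred among them was Bcl2l11.

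Bcl2l11, which encodes the BH3-only protein BIM, was higher in the knockout in ILC2, in ILC3 and both of its named subsets, in ILC1/NK cells, T cells, plasma cells and myeloid cells. ILC2 had 56.8 CPM (49.8 to 64.4) in WT and 93.4 CPM (86.3 to 101) in the knockout, a log2 ratio of 0.72 (0.50 to 0.94). In LTi-like ILC3 the level was 64.0 CPM (52.4 to 77.4) against 122 CPM (104 to 141), and the ratio was 0.92 (0.57 to 1.29). NCR+ ILC3 had 48.1 CPM (39.2 to 58.5) against 91.8 CPM (79.8 to 105), at a ratio of 0.93 (0.58 to 1.29). The knockout level thus lay above the WT level without overlap in each of these classes. In ILC1/NK cells, the class with most Bcl2l11 in WT, it went from 148 CPM (126 to 173) to 254 CPM (224 to 288), a ratio of 0.78 (0.49 to 1.08). Relative to the median of all genes the ratios were 0.56 in ILC2, 0.77 in LTi-like ILC3, 0.78 in NCR+ ILC3 and 0.68 in ILC1/NK cells, so ILC2 fell just short of 1.5-fold on that scale.

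Bcl2l11 differed by more in plasma and T cells. In plasma cells, 11.4 CPM (8.46 to 14.9) stood against 35.9 CPM (30.8 to 41.6), which was 3.16-fold higher, with a log2 ratio of 1.66 (1.203 to 2.14). That ratio was 2.34 among plasma cells without a Trac UMI and 2.25 as a mean over cells. Knockout T cells had 226 CPM (183 to 277) against 68.6 CPM (62.5 to 75.0), a ratio of 1.72 (1.39 to 2.05), but the 2 sets of T cells differ in kind. Without cells that held a Lyz2 or C1qa UMI, a split chosen after the data were seen, the level was 251 CPM in 52 knockout cells and 70.9 CPM in 1117 WT cells. Among T cells with a Trdc UMI, Bcl2l11 was at 65.4 CPM in 114 WT cells and at 238 CPM in 41 knockout cells, and among cells with Trac and no Trdc it was at 69.0 CPM in 1047 and 211 CPM in 7. Myeloid cells had 49.98 CPM (38.1 to 64.3) against 93.1 CPM (85.5 to 101), at 0.90 (0.51 to 1.31). That ratio fell to 0.44 when myeloid cells were taken from unsupervised clusters and to 0.40 as a mean over cells, below 1.5-fold in both cases. Split by markers after the data were seen, macrophage-marked cells had 79.0 CPM in WT and 118 CPM in the knockout, and dendritic-marked cells 32.8 and 82.3 CPM.

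ILC3 with neither subset's markers were the one class in which Bcl2l11 did not pass 1.5-fold, at 80.7 CPM (55.2 to 114) in WT and 84.5 CPM (65.6 to 107) in the knockout, a log2 ratio of 0.07 (-0.56 to 0.72) that rests on 95 WT cells. The same name given by unsupervised clusters, which covered other cells, gave 0.88. At 2000 UMIs per cell, a Bcl2l11 UMI was found in 10.3% (8.04 to 13.0) of WT and 15.1% (13.1 to 17.4) of knockout ILC2, in 10.4% (8.45 to 12.6) and 17.1% (14.9 to 19.6) of ILC3, and in 1.71% (0.208 to 6.04) and 8.07% (4.37 to 13.4) of plasma cells. Cells without a Y-linked UMI gave ratios of 0.77 in ILC2, 0.80 in ILC3, 0.84 in ILC1/NK cells, 1.66 in plasma cells and 0.83 in myeloid cells.

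**Figure D3:**
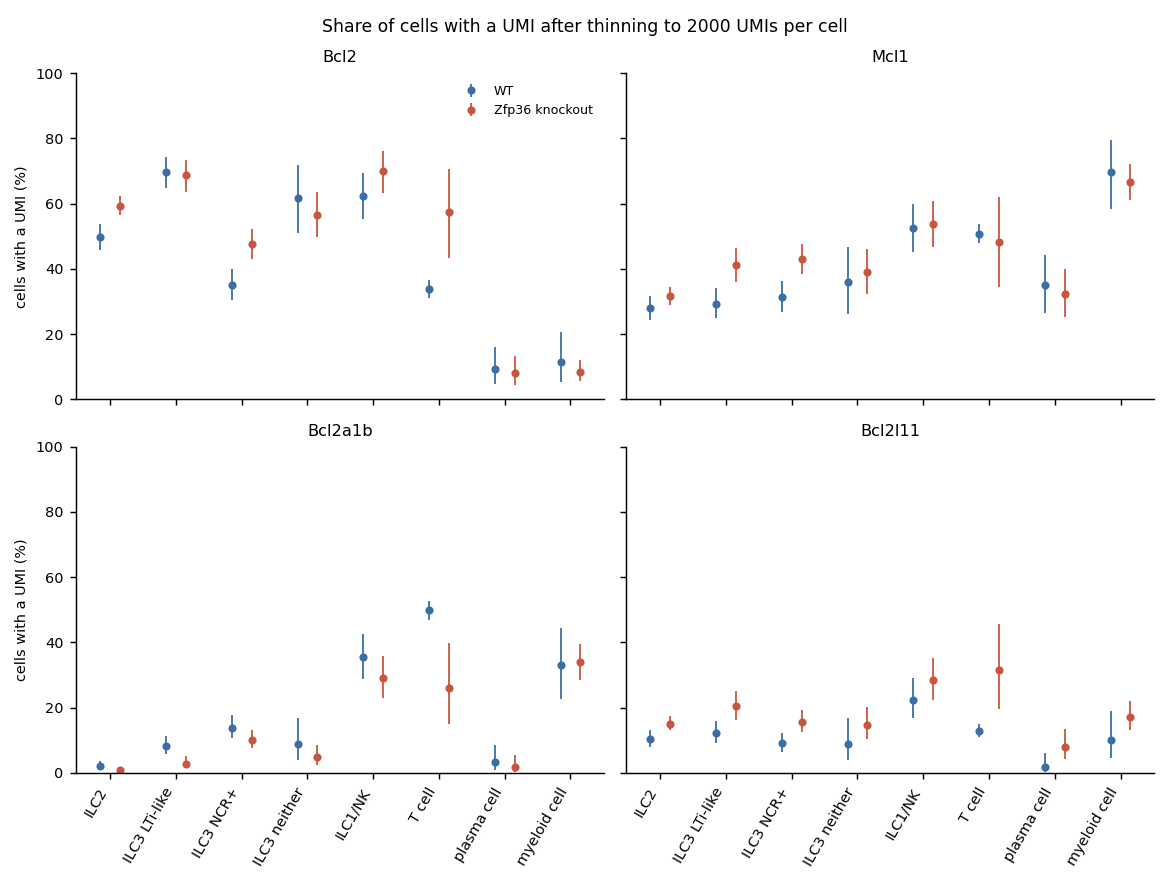
Share of cells (%) with at least 1 UMI of Bcl2, Mcl1, Bcl2a1b and Bcl2l11 after thinning every cell to 2000 UMIs, by class, with WT in blue, the Zfp36 knockout in red and exact 95% binomial intervals. For Bcl2l11 the share is 15.1% in knockout ILC2 and 10.3% in WT, and for Bcl2a1b it is 49.9% among T cells of the WT library and 25.9% in the knockout.

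Bbc3, encoding PUMA, a BH3-only protein induced by p53, did not follow Bcl2l11. It was lower in knockout LTi-like ILC3, at 36.8 CPM in WT and 15.4 CPM in the knockout (log2 ratio -1.26, -2.04 to -0.54), and in ILC3 as a whole (30.6 against 19.2 CPM, -0.67, -1.08 to -0.27). In NCR+ ILC3 it was 25.7 against 22.3 CPM (-0.21, -0.79 to 0.37), which did not pass. ILC1/NK cells had 57.6 against 33.9 CPM (-0.76, -1.41 to -0.14), a ratio that became -0.28 when cells with any T cell marker were left out. In ILC2 it was 15.9 against 11.2 CPM (-0.50, -0.99 to -0.01), short of 1.5-fold. Bax and Bak1 passed 1.5-fold in no class: Bax ratios lay between -0.32 in T cells and 0.25 in ILC3 with neither subset's markers, and Bak1 ratios between -0.36 in LTi-like ILC3 and 0.20 in plasma cells.

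Among survival members the A1 genes were mostly lower in the knockout, and markers of T cells, the class with most Bcl2a1b in WT, were lower with them. The 10 T cell markers summed to 74.1 CPM in WT and 37.0 CPM in knockout ILC2, to 112 and 57.9 CPM in ILC1/NK cells and to 195 and 80.6 CPM in plasma cells. Bcl2a1d stood at 35.3 CPM in WT and 8.84 CPM in knockout ILC2, 3.99-fold lower (log2 ratio -1.995, -2.45 to -1.55). It was lower too in ILC1/NK cells (430 against 240 CPM, -0.84), in ILC3 with neither subset's markers (116 against 43.5 CPM, -1.42), in T cells (236 against 60.9 CPM, -1.95) and in plasma cells (10.5 against 2.04 CPM, -2.36). The plasma value rests on 47 WT and 10 knockout UMIs, 40.0% of the latter in 1 cell. Bcl2a1b was lower in ILC2 (12.3 against 6.04 CPM, -1.03), ILC1/NK cells (430 against 236 CPM, -0.87), T cells (505 against 170 CPM, -1.57) and plasma cells (15.4 against 7.55 CPM, -1.03). Among cells with no T cell marker, the ratios of Bcl2a1b and Bcl2a1d were -0.75 and -1.80 in ILC2 and -0.79 and -0.82 in ILC1/NK cells, so both stayed lower there. In plasma cells without a Trac UMI the Bcl2a1b ratio was 0.74, the opposite direction, and Bcl2a1d fell under 50 UMIs. The lower Bcl2a1b level of knockout plasma cells thus rests on WT plasma cells with a Trac UMI, 25 of 117. With clusters in place of gates, Bcl2a1b was at -0.58 in ILC1/NK cells, -3.76 in T cells and -2.28 in plasma cells, and Bcl2a1d at -1.34 in ILC2 and -2.83 in T cells. Bcl2a1d in ILC2 was at -2.64 among cells without a Y-linked UMI. As a mean over cells, the plasma ratio was -0.39 for Bcl2a1b and -1.51 for Bcl2a1d, and with 4 markers required it was -1.71 and -3.09. The sum over Bcl2a1a, Bcl2a1b, Bcl2a1c and Bcl2a1d does not depend on how reads were split between them. Any reads left out for matching several of these genes would be missing from the sum. The log2 ratio of the sum was -1.70 (-2.06 to -1.35) in ILC2, -0.84 (-1.003 to -0.68) in ILC1/NK cells, -1.70 in T cells and -0.89 in plasma cells. It was -0.54 in NCR+ ILC3 and -0.24 in myeloid cells, both short of 1.5-fold. In myeloid cells Bcl2a1b was at -0.26 and Bcl2a1d at -0.43. Without the richest cell of each library they were at 0.08 and -0.14.

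LTi-like ILC3 were the exception, and the exception rested on 1 cell. There Bcl2a1d was 30.2 CPM in WT and 45.4 CPM in the knockout (log2 ratio 0.59, 0.03 to 1.15), Bcl2a1b was 52.6 and 77.5 CPM (0.56, 0.14 to 0.98) and the sum of the 4 genes was at 0.80. One knockout cell held 36 of the 65 Bcl2a1d UMIs and 77 of the 111 Bcl2a1b UMIs. It had 19926 UMIs, the minimum of 3 ILC3 markers (Tmem176a, Tmem176b and Kit), 54 UMIs of the MHC class II gene H2-Ab1, and 2 myeloid markers (Cst3 and Flt3). Without the richest cell of each library, the log2 ratio was -0.25 for Bcl2a1d and -1.03 for Bcl2a1b. In the knockout 2.79% of thinned LTi-like cells had a Bcl2a1b UMI, against 8.20% in WT.

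Bcl2 was higher in knockout NCR+ ILC3, at 266 CPM (245 to 289) in WT and 415 CPM (389 to 442) in the knockout, a log2 ratio of 0.64 (0.49 to 0.79) and of 0.49 relative to the median of all genes, where it no longer passed 1.5-fold. After thinning, 35.2% (30.5 to 40.1) of WT and 47.6% (43.0 to 52.3) of knockout NCR+ cells had a Bcl2 UMI. LTi-like ILC3, where Bcl2 was most abundant, had 736 and 746 CPM (0.02, -0.10 to 0.14), and ILC1/NK cells 676 and 729 CPM (0.11, -0.04 to 0.26). ILC2 had 432 and 543 CPM (0.33, 0.25 to 0.41). The gap between the ILC3 subsets was smaller in the knockout. In T cells the ratio was 0.67 (0.46 to 0.89), and it was -0.61 when T cells were taken from clusters. Within Trdc-positive T cells Bcl2 was at 473 CPM in WT and 537 CPM in the knockout.

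Mcl1 was higher in knockout LTi-like ILC3, at 174 CPM (154 to 195) in WT and 286 CPM (259 to 315) in the knockout (log2 ratio 0.72, 0.50 to 0.94). With clusters in place of gates, or relative to the median of all genes (0.57), that ratio was below 1.5-fold. In NCR+ ILC3 it was 228 against 289 CPM (0.34, 0.17 to 0.51). Mcl1 was the leading member, counted gene by gene, in plasma cells (236 and 242 CPM) and myeloid cells (631 and 644 CPM). Its ratios there were 0.04 (-0.08 to 0.16) and 0.03 (-0.08 to 0.14). Bcl2l1 was lower in ILC1/NK cells, at 43.5 against 19.0 CPM (-1.20, -2.05 to -0.40), and in T cells, at 25.9 against 9.74 CPM (-1.41, -3.31 to -0.03). The T cell value rests on 4 knockout UMIs and was -0.14 with clusters. In ILC2 Bcl2l1 was at 37.1 and 51.1 CPM (0.46, 0.18 to 0.74).

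**Figure D4:**
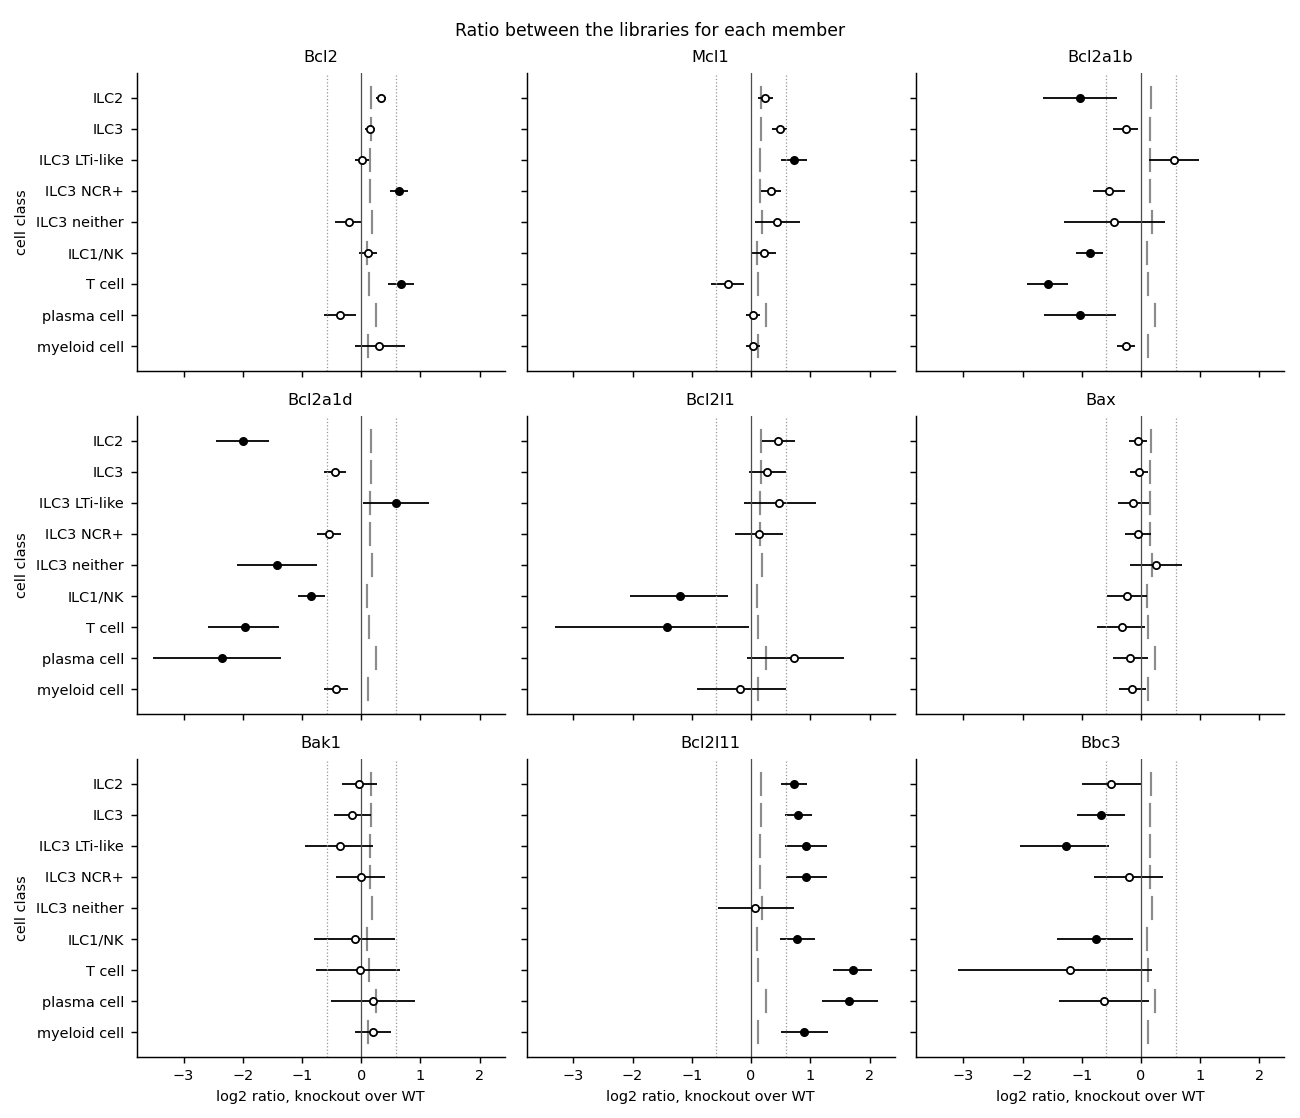
Log2 ratio of knockout over WT level for each member and class, with exact 95% intervals from the binomial split of UMIs; filled points are past 1.5-fold (dotted lines) with an interval that excludes 0, and the grey tick in each row is the median of all measured genes. Bcl2l11 is filled to the right in 8 of 9 classes, the A1 genes lie mostly to the left, and Bax and Bak1 have no filled point.

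Bcl2 UMIs per Bcl2l11 UMI were fewer in the knockout in every class, by values for which no interval was computed. The difference was small in ILC3 with neither subset's markers (7.78 and 6.43), which had 32 WT and 68 knockout Bcl2l11 UMIs. The quotients were 7.61 in WT and 5.81 in the knockout in ILC2, 11.5 and 6.14 in LTi-like ILC3, 5.53 and 4.52 in NCR+ ILC3, and 4.56 and 2.86 in ILC1/NK cells. In plasma cells the quotient was 4.96 and 1.22. Plasma cells thus had nearly as many Bcl2l11 as Bcl2 molecules counted in the knockout, while Mcl1, their leading member, was level. T cells had 4.43 and 2.14. Myeloid cells, also led by Mcl1, had 0.93 and 0.62, so Bcl2l11 was above Bcl2 there in both libraries, narrowly in WT (60 against 56 UMIs).

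Of 17 other BCL2 family genes, between 2 and 11 were measured per class, 57 class and gene pairs in all. By the fold alone 7 pairs were higher in the knockout and 2 lower, where 14.3% to 25.2% of all genes were higher and 3.44% to 13.7% lower, depending on the class, so these genes were not called more often than others. The interval also excluded 0 for 6 higher pairs and 1 lower pair. Bcl2l12 was higher in ILC2 (16.6 against 25.2 CPM, 0.61, 0.20 to 1.03). Bnip3, which encodes a mitophagy receptor, was higher in ILC3 (14.2 against 22.5 CPM, 0.67), within them in NCR+ cells (9.53 against 21.4 CPM, 1.17), and in myeloid cells (5.83 against 13.2 CPM, 1.18). The last of these rests on 7 WT UMIs. Bcl2l15 was higher in ILC3 (3.61 against 7.96 CPM, 1.14), and Bmf, a BH3-only gene like Bcl2l11, in myeloid cells (4.998 against 14.4 CPM, 1.52, from 6 WT UMIs). Pmaip1, the BH3-only gene encoding NOXA, was lower in T cells (50.2 against 17.0 CPM, -1.56). The BH3-only gene Bid had 73 UMIs in WT T cells (10.6 CPM, 8.29 to 13.3) and 0 in knockout T cells (0 CPM, 0 to 8.98). With 3 UMIs put in place of 0, a convention and not a bound, Bid was 1.45-fold lower in the knockout. Bik and Bad, both BH3-only genes, passed 1.5-fold in no class in which they reached 50 UMIs. Below that minimum, Bik had 13 UMIs in WT and 21 in knockout myeloid cells (10.8 against 3.47 CPM). Bik was the more abundant of the pair in ILC3, at 92.3 CPM in WT and 76.9 CPM in the knockout, and Bcl2a1a was at 155 and 154 CPM in myeloid cells.

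Among 16 genes of apoptosis execution and its inhibitors, Apaf1, the scaffold on which caspase-9 is activated, was higher in the knockout in ILC3 (21.7 against 42.7 CPM, 0.98, 0.61 to 1.35), most of all in LTi-like cells (14.5 against 47.5 CPM, 1.71, 1.02 to 2.45). It was also higher in ILC1/NK cells (0.84), T cells (0.71) and myeloid cells (0.85). By the fold alone, 2 of 10 measured genes of the list were higher in ILC1/NK cells and 0 lower, beside 14.3% and 5.46% of all genes. In T cells 2 of 15 were higher and 4 lower (23.1% and 13.7%). In myeloid cells 2 of 14 were higher and 1 lower (16.5% and 8.24%), and in ILC3 1 of 13 was higher and 0 lower (14.8% and 4.09%). The caspase inhibitor gene Xiap was higher in myeloid cells (55.8 against 97.7 CPM, 0.81). In ILC2 none of 14 measured genes was higher, beside 15.4% of all genes, and 1 was lower, the death receptor gene Tnfrsf10b (17.3 against 8.25 CPM, -1.07). The list's median log2 ratio was -0.01 in ILC2 and 0.16 in ILC3, beside 0.16 in both for all measured genes.

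Of 20 cytokine and transcription inputs to the family, Foxo1, a transcription factor known to drive Bcl2l11, was higher in the knockout in ILC2 (16.3 against 25.2 CPM, 0.63), LTi-like ILC3 (33.8 against 81.0 CPM, 1.26, 0.79 to 1.75) and NCR+ ILC3 (0.73). Foxo1 did not pass 1.5-fold in T cells (-0.45, -1.10 to 0.14), plasma cells (0.29, -0.13 to 0.72), ILC1/NK cells (0.49) or myeloid cells (0.22). Foxo3, of the same list, passed 1.5-fold in no class in which it was measured. Its ratio was -0.33 (-0.63 to -0.02) in ILC2 and -0.47 (-0.89 to -0.07) in NCR+ ILC3. Whether either gene has a part in the Bcl2l11 ratios was not tested. Cdkn1a, a p53 target as Bbc3 is, was lower in ILC2 (63.7 against 30.8 CPM, -1.05) and ILC3 (130 against 57.7 CPM, -1.17), and higher in myeloid cells (89.1 against 172 CPM, 0.95) and T cells (82.2 against 222 CPM, 1.43). Trp53, which encodes p53, was higher in ILC3 with neither subset's markers (0.72), ILC1/NK cells (0.61), T cells (0.86) and plasma cells (0.79). Bbc3 was lower in ILC1/NK cells (-0.76), and its interval included 0 in T cells (-1.20, from 4 knockout UMIs) and plasma cells (-0.62). In ILC3 with neither subset's markers Bbc3 was under 50 UMIs and got no ratio. Whether p53 has a part in these ratios was not tested. The NF-κB subunit gene Rel was higher in ILC3 (98.0 against 169 CPM, 0.79) and lower in T cells (-0.76). The receptor gene Il7r differed little in ILC2 (1117 against 1002 CPM, -0.16) and ILC3 (2548 against 2521 CPM, -0.02), and was lower in T cells (1366 against 833 CPM, -0.71). In ILC2 1 of 20 measured inputs was higher and 1 lower, beside 15.4% and 3.44% of all genes, and in ILC3 2 were higher and 1 lower, beside 14.8% and 4.09%. The shares higher were thus below those of all genes in these classes. In NCR+ ILC3 the share was above, with 4 of 20 inputs higher and 1 lower, beside 15.5% and 4.01%.

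Over 16 points, the 8 classes that share no cell in both libraries, the genes whose log2(CPM + 1) ran most like each member were found among 8143 genes with at least 500 UMIs. For Bcl2 they were D3Ertd751e (Pearson r = 0.96), Gimap8 (0.95) and Atg16l2 (0.95). For Bcl2a1b they were Tnfrsf1a (0.94), Armc7 (0.90) and its copy Bcl2a1d (0.90), and for Mcl1 they were Lgals3 (0.94), Tuba1c (0.94) and Smim3 (0.93). Cdc27, Zyg11b and Tcf25 (0.92 each) ran most like Bcl2l11. Within the family the correlation of Bcl2 with Mcl1 was -0.43, and that of Bax with Bak1 was 0.83. The points share 2 libraries and differ in depth, so these values only describe the classes.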

How the data were processed

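Droplet 3′ single-cell libraries (Chromium v2 kit, per the labels' protocols) were deposited as UMI counts per gene and cell barcode, made by the authors with Cell Ranger 3.1.0, per the file headers, on mm10, per the submitters' processing notes; the annotation release is not given in the sources used here. WT held 3593 barcodes and 24721524 UMIs, and the knockout 3522 and 27733804. Cells with under 500 genes, over 10% mitochondrial UMIs or a doublet call by Scrublet (37 WT and 5 knockout cells, only 0.150% of knockout cells, so doublets may remain there) were left out. Marker gates required 3 distinct markers, at most 1 T cell marker and at most 2 of any other list in ILCs, and 2 for an ILC3 subset. UMIs were summed per class and scaled to CPM. Levels have exact Poisson intervals, shares Clopper-Pearson intervals and ratios the exact binomial split of UMIs; with 1 library per genotype no test was possible. Shares of cells were taken after thinning to 2000 UMIs. Leiden clusters (scanpy 1.11.5, leidenalg 0.10.2) named by the same markers served as alternative classes. Ratios were checked on Poisson class sums simulated from ILC3. That check shares the assumption of the intervals and leaves out clumping of UMIs in single cells. It therefore cannot show how the intervals hold where UMIs clump. Genes were named by rule: every member, and from each other list at most 4 genes per class and direction. Those were past 1.5-fold with an interval excluding 0, taken by the interval end nearest 0. Bid, Bik, Bad, Bcl2a1a, Il7r and Foxo3 were named after their values were seen. The members, lists and rules were chosen with earlier results of these data known. Gene positions and 3′ UTR sequences are from GENCODE M21. Some measured genes are not reported here.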

Additional observations from a re-analysis of the deposited data

Results flagged for a closer look

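Bcl2a1d, one of the near-identical copies of the A1 survival gene, was the one member that passed 1.5-fold with an interval excluding 0 in both directions, higher in the knockout in one class and lower in others. Its log2 ratio of knockout over WT was 0.59 in LTi-like ILC3 and -1.995 in ILC2, -1.42 in ILC3 with neither subset's markers, -0.84 in ILC1/NK cells, -1.95 in T cells and -2.36 in plasma cells. With 1 library per genotype the difference between classes was not tested. In LTi-like ILC3 1 knockout cell held 55.4% of the Bcl2a1d UMIs, and without the richest cell of each library the ratio was -0.25.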

How the results depend on the processing

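Of the 26 pairs of member and class counted as higher or lower, 23 kept their direction under every alternative that could be computed and 16 stayed past 1.5-fold. Allowing no T cell marker changed the ILC gates only. For T, plasma and myeloid cells that alternative repeated the main value and could not move a pair, although it is counted among the alternatives. Leaving out the richest cell, leaving out plasma and myeloid cells with a T cell marker or a Trac UMI, and adding Bcl2a1a and Bcl2a1c were chosen after seeing the data. Bcl2a1d in LTi-like ILC3 reversed to -0.79 with 4 markers required, -0.24 with Leiden clusters, -0.0028 as a mean over cells and -0.25 without the richest cell. Bcl2 in T cells reversed to -0.61 with Leiden clusters, and Bcl2a1b in plasma cells to 0.74 without cells with a Trac UMI. The cause was not tested, beyond the share held by 1 cell for Bcl2a1d and the cells left out. Counts of members past 1.5-fold moved as follows. In ILC3 the count went from 2 to 4 with Leiden clusters; in LTi-like ILC3 from 4 to 2 with Leiden clusters, relative to the median of all genes or at 200 UMIs; in NCR+ ILC3 from 2 to 4 when scaled without mitochondrial and ribosomal protein genes. In ILC3 with neither subset's markers it went from 1 to 5 with Leiden clusters, to 2 relative to the median or at 20 UMIs, and to 0 without the 5% richest cells or at 200 UMIs. In ILC1/NK cells it went from 5 to 3 with no T cell marker allowed or at 200 UMIs; in plasma cells from 5 to 3 as a mean over cells, without the richest cell or without Trac UMIs, and to 1 without the 5% richest cells or at 200 UMIs; in myeloid cells from 1 to 2 without the 5% richest cells or at 20 UMIs. As a mean over cells, the survival share (WT, then knockout) was 71.4% and 73.2% in ILC2, 74.0% and 74.6% in ILC3, 73.8% and 75.8% in LTi-like, 73.4% and 74.0% in NCR+ ILC3 and 77.1% and 74.4% in myeloid cells; it was 79.5% in WT ILC1/NK cells, 80.2% in WT T cells and 75.2% in knockout plasma cells. With Bcl2a1a and Bcl2a1c the myeloid share was 82.0% and 79.5%. Shares of cells with a UMI depend on depth: 148 of 162 left their interval without thinning and 125 at 1000 UMIs. WT plasma and myeloid cells fell under 50 cells with no T cell marker, and knockout T cells with 4 markers or without Y-linked UMIs, and members under 50 UMIs got no ratio. Bcl2a1d in ILC2 had 0 knockout UMIs left without the 5% richest cells, and its value there takes 3 UMIs in place of 0, a convention and not a bound. No paired analysis was possible because each genotype has 1 library.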
